A study of Mus musculus with 6 samples.

Results

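Slc13a3 and the genes that make, move, use or sense itaconate, citrate and succinate were examined in mouse bone marrow-derived macrophages that lacked or kept the long non-coding RNA gene Morrbid. The genes were chosen by symbol. The 9 symbols named Slc13a3, Slc13a5, Acod1, Irg1, Aco1, Cs, Acly, Sucnr1 and Idh1, and as Irg1 is the older name of Acod1 they stood for 8 of the 16138 genes in the authors' deposited table. Slc13a3 was picked with its ratio in this comparison known, so the values of the set are a description, and no test was run on them. Control macrophages (3 samples) came from Morrbidfl/fl mice, in which the Morrbid gene is flanked by loxP sites. Knockout macrophages (3 samples), called cKO here, came from Morrbidfl/fl/Lyz2-Cre mice, in which Cre recombinase expressed from the lysozyme locus of myeloid cells removes the flanked sequence. Both genotypes thus carried the flanked allele and only cKO carried Cre, so an effect of Cre cannot be told apart from one of Morrbid loss. Marrow cells of both genotypes were grown for 7 days in 20% fetal bovine serum and 50 ng/ml M-CSF, the growth factor that turns marrow progenitors into macrophages. The labels name no inflammatory stimulus, age or sex. The study concerns macrophage-driven inflammation of the aortic wall.

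Itaconate, citrate and succinate are carboxylic acids of the tricarboxylic acid (TCA) cycle or made from it. Citrate synthase (Cs) forms citrate in mitochondria; exported citrate is split by ATP citrate lyase (Acly) into acetyl-CoA for lipid synthesis, or turned into isocitrate by cytosolic aconitase (Aco1), which Idh1 oxidises with production of NADPH. In macrophages activated by bacterial products, Acod1 diverts cis-aconitate of the cycle into itaconate, which inhibits succinate dehydrogenase and modifies cysteines of regulatory proteins. Slc13a3 (NaDC3) is a sodium-coupled importer of succinate, 2-oxoglutarate and N-acetylaspartate that has also been reported to carry itaconate. Its relative Slc13a5 (NaCT, or Indy) prefers citrate, and Sucnr1 is a G protein-coupled receptor for extracellular succinate.

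The start regions of Slc13a3 and Acod1 are printed because these are the 2 genes of the set with the highest ratios among those measured with an implied standard error under 1 log2 unit, which is the error that a gene's deposited ratio and p-value together imply. Each run holds the 250 bases before the start annotated by RefSeq on GRCm38.p6, written 5′ to 3′ on the strand of the gene. Capitals mark matches to 6 motifs searched on both strands. Those of inducible factors were the NF-kB site, GAAANNGAA (the core of an interferon response element), TGACNNNGC (an antioxidant response element) and TGANTCA (an AP-1 site, which reads alike on both strands). The NF-kB site was searched as GGGRNNYYCC, where R is A or G, Y is C or T and N is any base. Only exact matches to each pattern were counted. PU.1, a transcription factor of macrophage identity, was represented by the core GAGGAA of its site. The TATA box, where transcription often starts nearby, was searched as TATAAA.
Slc13a3, chr2:165473198-165473447, minus strand: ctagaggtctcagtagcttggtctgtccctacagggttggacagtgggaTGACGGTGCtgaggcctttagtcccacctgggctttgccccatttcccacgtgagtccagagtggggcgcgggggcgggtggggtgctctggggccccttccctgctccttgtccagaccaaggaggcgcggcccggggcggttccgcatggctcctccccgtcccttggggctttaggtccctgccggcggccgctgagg
Acod1, chr14:103046762-103047011, plus strand: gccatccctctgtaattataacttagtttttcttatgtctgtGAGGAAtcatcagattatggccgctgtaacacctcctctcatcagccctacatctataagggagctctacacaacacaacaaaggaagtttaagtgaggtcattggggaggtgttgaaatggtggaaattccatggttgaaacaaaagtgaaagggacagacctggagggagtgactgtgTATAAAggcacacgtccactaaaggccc
The Slc13a3 window was rich in G and C (67.6%) and held 14 CpG dinucleotides, against medians of 52.4% and 6 over 32851 start windows of the same length. Its one motif match was TGACNNNGC, from 201 to 193 bases before the start, a motif that 10.2% of all windows held. The Acod1 window was poorer in G and C (44.4%) with 2 CpG dinucleotides. It held TATAAA from 28 to 23 bases before the start (12.4% of all windows) and GAGGAA from 208 to 203 bases before it (23.3% of all windows). No match in either window overlapped another. The NF-kB pattern, GAAANNGAA and TGANTCA had no exact match in these windows, and were held by 7.25%, 7.13% and 6.75% of all windows. Sites that differ from these patterns by a base were not searched, so the windows may still hold related sites. A match describes the letters of a window and is not a measured binding site.

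Of the 8 genes, 1 was higher in cKO at a q under 0.05 in the authors' deposited table, which is Slc13a3, and none was lower; q is the p-value adjusted over all genes. Over all genes of the authors' deposited table, 1.72% passed that threshold, 0.849% higher and 0.874% lower. Because the set was built around Slc13a3 with its ratio known, nothing is read from this count. The deposited values are 1 ratio, 1 p-value and 1 q-value per gene; expression in single libraries and library depth were not analysed here, so levels in single samples and overlap between the groups cannot be given. The labels do not state if samples of the same genotype came from separate mice; the p-values thus reflect the spread between samples, part or all of which may be technical.

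The log2 fold change of Slc13a3 (Gene ID 114644), cKO over control, was 2.37 with q = 6.03e-08 in the authors' deposited table. This is 5.18 times the control level. Its implied standard error was 0.36 log2 units and its implied 95% interval ran from 1.66 to 3.08, or from 3.17 to 8.45 times the control level. Of all genes, 63.2% had a smaller implied standard error. In bulk RNA a change in the share of cells that express a gene and a change in RNA per cell cannot be told apart. Slc13a3 ranked 13 of 16138 genes by p-value and 2 of the 278 genes at q under 0.05 by ratio in the authors' deposited table. By ratio alone it ranked 141, and of the 140 genes with higher ratios 137 had an implied standard error over 1. Among the 10 genes above and the 10 below it in that ranking, log2 ratios ran from 2.21 to 2.40, and 2 of these 20 genes passed the q threshold in the authors' deposited table. The implied standard error exceeded 1 for 16 of these 20 genes.

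**Figure D1:**
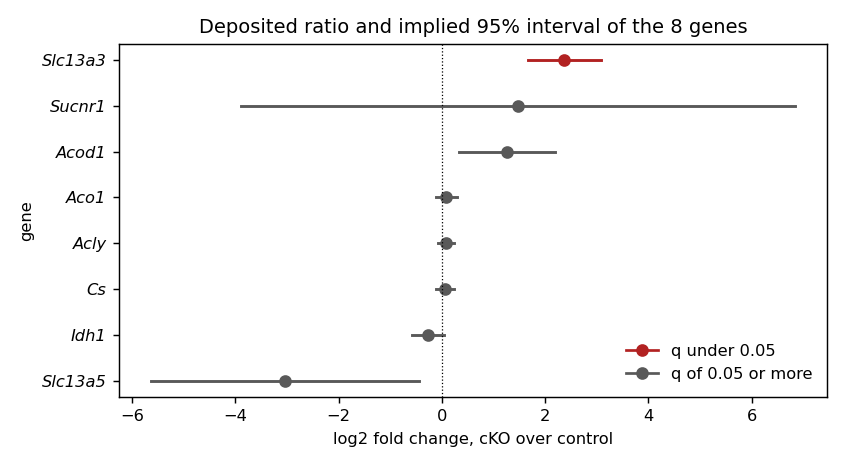
Log2 fold change of cKO over control (horizontal axis) for each of the 8 genes (vertical axis), as points from the authors' deposited table, with bars for the 95% interval implied by the ratio and its p-value. Slc13a3 lies at 2.37 with a bar from 1.66 to 3.08; the bars of Cs, Acly and Aco1 are short and cross 0, and that of Sucnr1 runs from -3.89 to 6.84.

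The paralogue of Slc13a3 in the set had a ratio on the other side of 0. For Slc13a5 (Gene ID 237831) the log2 fold change was -3.03 with p = 0.0217 and q = 0.371 in the authors' deposited table. Its implied standard error was 1.32 log2 units and its implied interval ran from -5.63 to -0.44. At that precision a difference of 4.41 log2 units would have been needed to pass, so the size of the Slc13a5 ratio is poorly known. Slc13a2, the dicarboxylate importer of kidney and intestine, had a log2 ratio in the authors' deposited table of 0.50 (q = 0.925). Slc13a1 and Slc13a4, which carry sulfate, and the organic anion transporters Slc22a6 and Slc22a7 were searched for by symbol without a match.

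Among the other transporters of carboxylates in the plasma membrane, no gene passed. The monocarboxylate carriers Slc16a1, which has been reported to release succinate, and Slc16a3, a lactate exporter, stood at -0.25 (q = 0.993) and 0.02 (q = 1.00) in the authors' deposited table. Abcg2, an efflux pump reported to export itaconate, had a log2 ratio in the authors' deposited table of -0.11 (q = 0.993). Slc22a8, an organic anion exchanger, had a log2 ratio in the authors' deposited table of -1.88 (q = 0.993), with an implied interval from -9.60 to 5.83. Of the 7 measured transporters in the list, 1 was higher, none was lower and 6 did not pass, with a median of -0.11 beside -0.01 over all genes.

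Within the whole solute carrier superfamily, Slc13a3 ranked 1 of 298 genes by p-value and 3 by ratio in the authors' deposited table. Of these 298 genes, 8 (2.68%) were at q under 0.05, and all 8 had higher ratios in cKO, beside 1.72% called over all genes, 0.849% higher and 0.874% lower. Slc11a2, an importer of iron and other divalent metals, came next by p-value at 0.52 (q = 1.58e-05) in the authors' deposited table; it is named here because of its value. Slc25a10, the mitochondrial carrier that exchanges succinate and malate for phosphate, ranked 3 by p-value. Its log2 ratio in the authors' deposited table was 0.50 (q = 2.51e-05), 1.41 times the control level with an implied interval from 0.32 to 0.68. The median ratio of the 298 genes was 0.00.

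**Figure D2:**
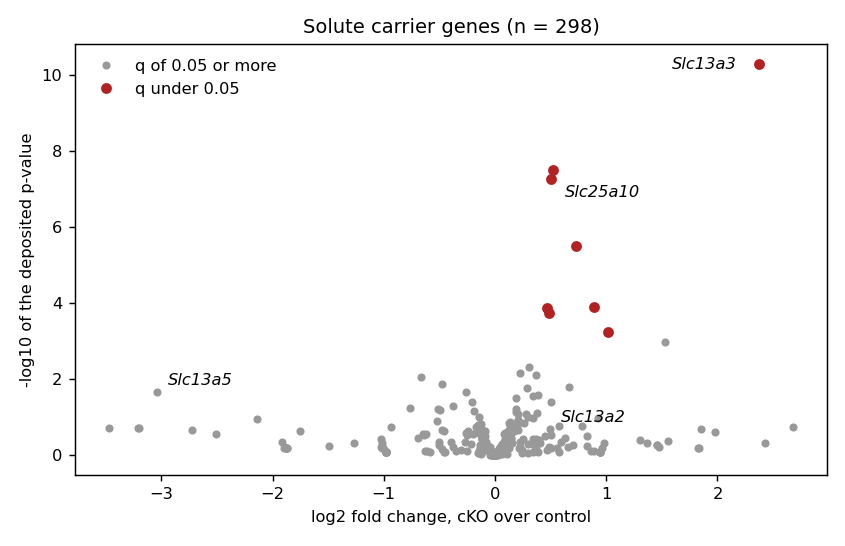
Log2 fold change of cKO over control (horizontal axis) against -log10 of the p-value (vertical axis) for 298 solute carrier genes in the authors' deposited table; each point is a gene and red points have q under 0.05. The 8 red points all lie to the right of 0, with Slc13a3 at the top right.

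Slc25a10 belongs to the mitochondrial carriers of carboxylates. Of 9 measured carriers, 1 was higher at q under 0.05, none was lower and 8 did not pass, and the list median was 0.00. Slc25a1, the citrate carrier that supplies Acly, had a log2 ratio in the authors' deposited table of 0.00 (q = 1.00). Slc25a11, which exchanges 2-oxoglutarate for malate, had a log2 ratio in the authors' deposited table of 0.08 (q = 0.993). Slc25a21, a carrier of 2-oxodicarboxylates, had a log2 ratio in the authors' deposited table of -0.02 (q = 1.00) and shared its ratio and p-value with 26 genes, itself included. Among all 45 measured Slc25 genes Slc25a10 had the smallest p-value.

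Acod1 (Gene ID 16365), the enzyme of itaconate synthesis, stood at a log2 fold change of 1.26 with p = 0.00828 and q = 0.218 in the authors' deposited table, and so did not pass. That ratio corresponds to 2.39 times the control level. Its implied interval ran from 0.32 to 2.19, or from 1.25 to 4.56 times control, and at its implied standard error of 0.48 a difference of 1.59 log2 units would have been needed to pass. At an unadjusted p under 0.05, 3 of the 8 genes passed (2 higher, 1 lower), where 8.84% of all genes did. These were Slc13a3, Acod1 and Slc13a5.

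The rest of the itaconate route lay near 0. Of 10 measured genes of itaconate synthesis and breakdown, none passed (1, Acod1, at an unadjusted p under 0.05), 9 had ratios above 0, and the median was 0.07. After Acod1 the smallest p-values belonged to Clybl, the lyase that splits citramalyl-CoA in itaconate breakdown, at 0.21 (q = 0.987), and Mcee, methylmalonyl-CoA epimerase, at -0.14 (q = 0.993), in the authors' deposited table. Among 11 receptors, adaptors and transcription factors that induce Acod1 none passed (2 at an unadjusted p under 0.05), with ratios from -0.23 to 0.14. Irf8 (-0.23, q = 0.411), Ifnar2 (-0.15, q = 0.446) and Ifngr1 (-0.15, q = 0.579) had the smallest p-values of that list in the authors' deposited table.

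Of 17 genes reported as targets or responders of itaconate, 1 was higher, none was lower and 16 did not pass. Nfkbiz (log2 ratio 0.54 and q = 0.0254 in the authors' deposited table) was the gene that was higher, and encodes a nuclear cofactor of NF-kB, IkappaB-zeta, that is restrained by itaconate derivatives. Genes of the NRF2 pathway, which itaconate activates through KEAP1, did not pass. Nfe2l2 stood at -0.19 (p = 0.0405, q = 0.512), Keap1 at -0.07 (q = 0.993) and Nqo1 at -0.57 (q = 0.712) in the authors' deposited table. The glutamate-cysteine ligase subunits Gclc (-0.17) and Gclm (-0.27) also had ratios below 0 there. The other genes of that pathway in the list had ratios above 0 there, which did not pass either: the cystine importer Slc7a11 at 0.37 (q = 0.993), the haem oxygenase Hmox1 at 0.15 (q = 0.987), the thioredoxin reductase Txnrd1 at 0.13 (q = 0.990) and the sulfiredoxin Srxn1 at 0.02 (q = 0.994). These 17 genes had a median log2 ratio of 0.01. At an unadjusted p under 0.05, 2 of them passed, Nfkbiz (higher) and Nfe2l2 (lower), where 8.84% of all genes did.

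Cs, Acly and Aco1 were among the more precisely measured genes, and their ratios were close to 0. Cs (Gene ID 12974) had a log2 ratio in the authors' deposited table of 0.06 (q = 0.993), with an implied interval of 0.919 to 1.18 times the control level. Acly (Gene ID 104112) had a log2 ratio in the authors' deposited table of 0.07 (q = 0.993), with an implied interval of 0.946 to 1.17 times control. Only 1.26% of all genes had a smaller implied standard error than Acly. Aco1 (Gene ID 11428) had a log2 ratio in the authors' deposited table of 0.08 (q = 0.993), with an implied interval of 0.921 to 1.22 times control. Idh1 (Gene ID 15926) had the lowest ratio of the 4 citrate and isocitrate enzymes, -0.27 with p = 0.0836 and q = 0.694 in the authors' deposited table, and 44.3% of all genes had a smaller implied standard error. Its implied interval ran from 0.667 to 1.03 times control. Observed differences of 0.30 (Cs), 0.26 (Acly), 0.35 (Aco1) and 0.53 (Idh1) log2 units would have been needed to pass at the precision of each gene. Smaller observed differences would not have passed, which does not show that the true differences were 0.

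**Figure D3:**
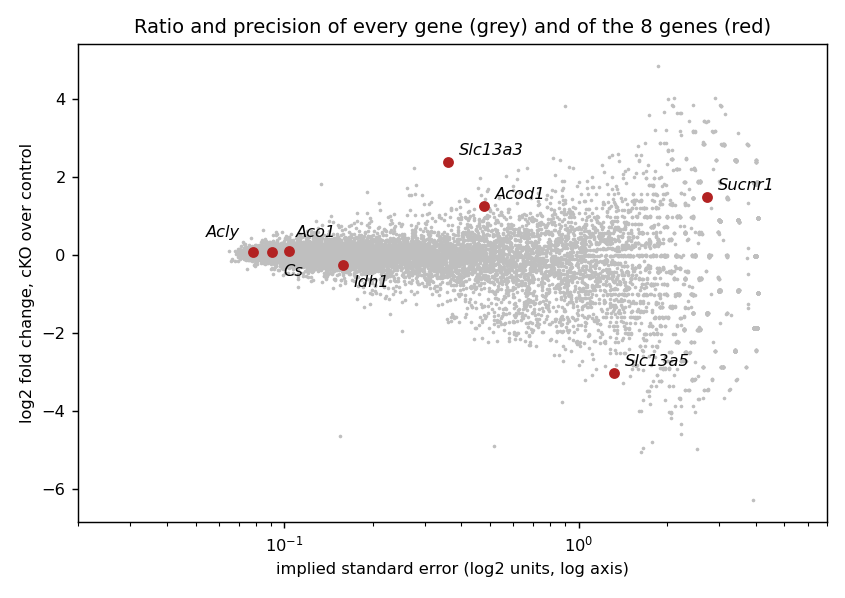
Log2 fold change of cKO over control (vertical axis) against the implied standard error on a log axis (horizontal axis) for all genes (grey) and the 8 genes of the set (red). Acly, Cs and Aco1 lie at the precise left end near 0, Slc13a3 lies at 2.37 with an implied standard error of 0.36, and Slc13a5 and Sucnr1 lie at the imprecise right end.

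Other genes of cytosolic citrate and isocitrate use did not pass either. Of the 10 measured genes of that list none passed (1 at an unadjusted p under 0.05), and the median was 0.05. The smallest p-values were those of Acaca, acetyl-CoA carboxylase of fatty acid synthesis, at 0.27 (q = 0.518), Mdh1, cytosolic malate dehydrogenase, at -0.16 (q = 0.570), and Idh1, in the authors' deposited table. Aco1 also acts, when it lacks its iron-sulfur cluster, as iron regulatory protein 1, which binds iron-responsive elements in mRNAs of iron handling. Of 8 such mRNAs, listed after their values were seen, only Slc11a2 passed. Tfrc, the transferrin receptor, stood at 0.44 (q = 0.133), Fth1, the ferritin heavy chain, at 0.35 (q = 0.202) and Slc40a1, the iron exporter ferroportin, at -0.77 (q = 0.598) in the authors' deposited table. Ireb2, which encodes the second iron regulatory protein, had a log2 ratio in the authors' deposited table of 0.12 (q = 0.993).

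Genes of the mitochondrial TCA cycle showed no call and little spread. None of the 20 measured genes passed, and 0 did so at an unadjusted p under 0.05. Their ratios ran from -0.17 to 0.11 with a median of 0.02. Over the 20 genes, the lowest bound of an implied interval was -0.41 and the highest was 0.38. The smallest p-values were those of Sdhd, a membrane anchor of succinate dehydrogenase, at -0.13 (q = 0.825), Fh1, fumarase, at -0.17 (q = 0.861), and Ogdh, 2-oxoglutarate dehydrogenase, at 0.11 (q = 0.895), in the authors' deposited table. The 4 subunits of succinate dehydrogenase, the enzyme that itaconate inhibits, ran from -0.13 to 0.11 in the authors' deposited table. Of 14 genes that feed the cycle none passed, and 1 did so at an unadjusted p under 0.05. That gene was Pdk4, a kinase that inactivates pyruvate dehydrogenase, with a log2 ratio in the authors' deposited table of -1.50 (p = 0.0304, q = 0.446) and an implied interval from -2.87 to -0.14. Pdp1, the opposing phosphatase, stood at 0.27 (q = 0.785) and Pdk2 at -0.22 (q = 0.931) in the authors' deposited table. Without Pdk4 the list ran from -0.22 to 0.27.

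**Figure D4:**
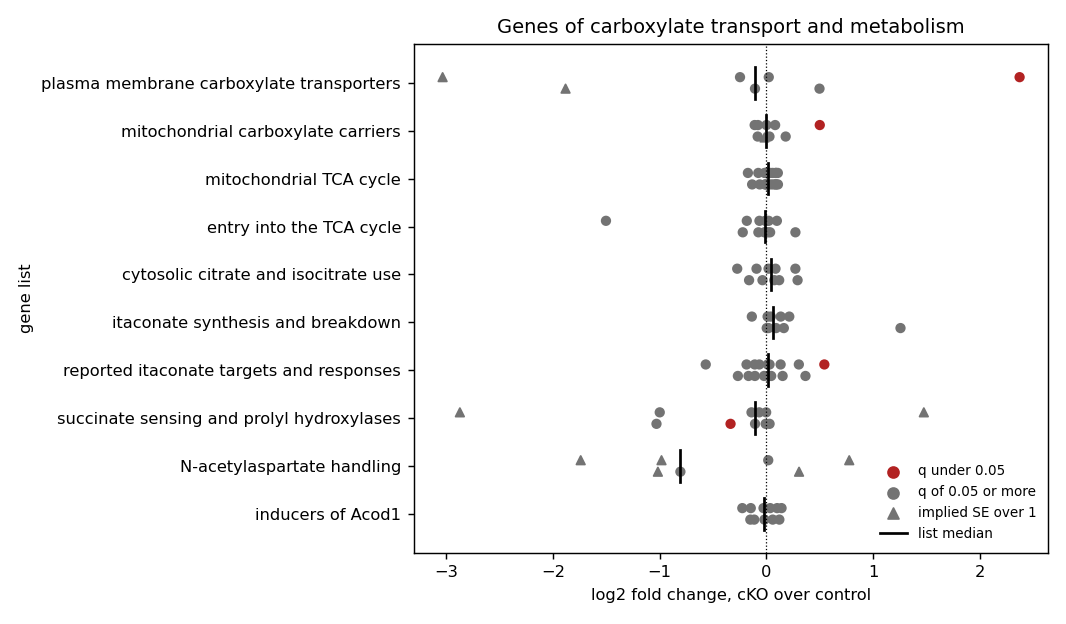
Log2 fold change of cKO over control (horizontal axis) of the genes in 10 lists of carboxylate transport and metabolism (rows). Each symbol is a gene in the authors' deposited table, red where q is under 0.05, a triangle where the implied standard error is over 1, and black bars are list medians. Points of the TCA cycle lie between -0.17 and 0.11, whereas those of the plasma membrane transporters run from -3.03 to 2.37.

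The succinate receptor was measured too imprecisely for a direction. Its gene Sucnr1 (Gene ID 84112) stood at a log2 fold change of 1.47 with p = 0.590 and q = 0.993 in the authors' deposited table. Its implied standard error was 2.74 log2 units, its implied interval ran from -3.89 to 6.84, and a difference of 9.13 would have been needed to pass. It shared its ratio and p-value exactly with the gene Slc5a5. In all, 2023 genes shared both values with another gene; none of them passed and their median implied standard error was 3.99, against 0.16 for the other 14115 genes. Oxgr1, a receptor for 2-oxoglutarate that has also been reported to sense itaconate, had a log2 ratio in the authors' deposited table of -2.87 (q = 0.993) and was likewise one of these genes.

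Succinate also inhibits dioxygenases that use 2-oxoglutarate, among them the prolyl hydroxylases of HIF and of collagen. Of the 11 measured genes of succinate sensing and prolyl hydroxylation, 1 was lower, none was higher and 10 did not pass (median -0.11). P4ha1, a collagen prolyl hydroxylase, was lower at -0.34 (q = 0.0387) in the authors' deposited table. P4ha2, of the same function, had a log2 ratio in the authors' deposited table of -1.03 (q = 0.0930). Hif1a, the oxygen-regulated transcription factor subunit, had a log2 ratio in the authors' deposited table of 0.00 (q = 1.00). Beside these values, the ratios of all 18 measured fibroblast and stromal markers were below 0, from -2.48 to -0.58 with a median of -1.64, and 2 of them passed as lower. In the authors' deposited table these were Acta2, an actin of contractile cells, with a log2 ratio of -2.06 and q = 0.0458, and the collagen chain gene Col5a1 with -1.70 and q = 0.000815. At an unadjusted p under 0.05, 16 of the 18 were lower, where 8.84% of all genes differed in either direction. Their summed levels per group were not analysed here, and their part in the lower P4ha1 and P4ha2 ratios was not tested.

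N-acetylaspartate, another substrate of Slc13a3, is made by Nat8l and split by Aspa. None of the 7 measured genes of its handling passed (1 at an unadjusted p under 0.05), and only 2 had an implied standard error of at most 1. Nat8l stood at -0.81 (p = 0.0147, q = 0.300), Folh1, a peptidase of N-acetylaspartylglutamate, at -1.74 (q = 0.993), and Rimklb, a ligase that makes that peptide, at 0.78 (q = 0.993), in the authors' deposited table.

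Genes around Slc13a3 did not share its ratio at a q under 0.05. Of the 3 measured genes on either side of it on chromosome 2 in the RefSeq order of GRCm38, none passed. Trp53rka, the next gene on one side, had a log2 ratio in the authors' deposited table of 0.44 (p = 0.000890, q = 0.0511), just above the threshold. Reads of Trp53rka may have been split with its copy Trp53rkb, so its value is uncertain. Ocstamp, the next on the other side and a gene of cell fusion in osteoclasts, had a log2 ratio in the authors' deposited table of -0.23 (q = 0.993). Elmo2 stood at -0.06 (q = 0.993) and Zfp334 at 0.56 (q = 0.993), while Slc2a10 stood at 0.66 (q = 0.993) and Eya2 at -2.63 (q = 0.901), in the authors' deposited table. Implied standard errors were 0.64 (Zfp334), 0.84 (Ocstamp), 1.35 (Slc2a10) and 1.96 (Eya2), so not passing says little about these genes. Those of Elmo2 and Trp53rka were 0.09 and 0.13. The neighbours of the other 7 genes were examined in the same way, and those that passed are named because of their values. Kctd12, next to Acod1 on chromosome 14, was higher, with a log2 ratio of 0.50 in the authors' deposited table and a q of 0.00325 there. P2ry12, a purinergic receptor gene near Sucnr1 on chromosome 3, was lower at -0.64 (q = 0.00241) in the authors' deposited table. No label states whether reads were counted with regard to strand.

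The genes at q under 0.05 with ratios nearest to that of Slc13a3 were Marco, a scavenger receptor, Rab4a, a GTPase of endosome recycling, Susd2, a sushi domain protein, Xlr3b, from a family of similar copies between which reads may be split, and the class Ib histocompatibility gene H2-M2. Their log2 ratios differed from that of Slc13a3 by 0.14, 0.15, 0.21, 0.36 and 0.41, a likeness over 1 comparison only. Of these 5, Rab4a had a smaller implied standard error (0.28) than Slc13a3, and the others ranged from 0.46 to 0.67. RefSeq places them on chromosomes 1, 8, 10, X and 17, and Slc13a3 on chromosome 2.

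Markers of cell identity could be read as ratios only, so whether their levels fit macrophages was not analysed here. Of 13 macrophage markers, Adgre1 was higher (0.44, q = 0.0104) and Lyz2, whose locus carries Cre in cKO, was lower (-0.85, q = 4.60e-06) in the authors' deposited table; 11 did not pass and the median was -0.03. The Morrbid transcript was not analysed here, so the labels could not be checked on the deleted gene. All 7 marker lists had medians below 0. Outside the macrophage list they ran from -1.64 for stromal cells to -0.09 for dendritic cells. Like the stromal markers, all 13 neutrophil markers had ratios below 0 (median -0.36), and none of the 13 passed. Of 8 measured erythroid and megakaryocyte markers, 6 had ratios below 0 and 2 above (median -0.63), and none passed. Ccr3, an eosinophil marker, was the only marker outside the macrophage list that was higher at q under 0.05 (1.14, q = 2.77e-05, in the authors' deposited table). Its list of mast cell, basophil and eosinophil markers had 7 of 9 measured ratios below 0, with a median of -0.12. Among those 7 were the eosinophil genes Epx (-1.50, q = 0.993), Siglecf (-0.71, q = 0.862) and Prg2 (-0.37, q = 0.993) in the authors' deposited table. The part of any of these lists in the Slc13a3 ratio was not tested.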

How the data were processed

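RNA of 3 control and 3 cKO macrophage samples, grouped by the labelled genotype, had been sequenced. For each gene the authors deposited a log2 ratio of Morrbid cKO to WT with its p-value and q-value, per the file headers; WT was read as the control group. Per the submitters' processing notes, mm9, Bowtie2, RSEM 1.3.1 and DESeq2 1.4.5 were named, with no role or order given. Library scaling and filters on low genes are not stated there. A Benjamini-Hochberg adjustment of the p-values over 16138 genes gave the deposited q-values within a relative difference of 0.00591.

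Genes were matched on the deposited symbols. A call was a q under 0.05. The implied standard error is the ratio divided by the normal quantile of its two-sided p-value, which assumes a Wald-type test. It describes precision, in which depth and the spread between samples cannot be told apart. The difference needed to pass is that error times the quantile of 0.00086, the largest p among called genes. The members and gene lists were chosen with earlier results of these data known. The text names every member, genes of the pathway lists that passed or otherwise those with the smallest p-values, marker genes that passed, the 5 called genes nearest in ratio to Slc13a3 and its 3 measured neighbours per side; other named genes illustrate a role or are marked as named for their value. All 8 genes matched RefSeq start windows and its gene order on GRCm38.p6, a build other than mm9; the only coordinates given are those of the windows. Simulated data checked only the computation of the implied standard error and the adjustment of p-values. They were drawn under the assumed test, so they could not check that assumption. SciPy 1.17.1, NumPy 2.4.6, pandas 2.3.3 and matplotlib 3.10.9 were used in Python 3.11.15.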

Additional observations from a re-analysis of the deposited data

How the results depend on the processing

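The call of Slc13a3 held, and no other of the 8 genes passed, at a q under 0.01, with a minimum of 1 for the absolute log2 fold change, with Holm adjustment, with Benjamini-Hochberg adjustment recomputed over all genes, over mRNA genes alone, over the genes whose implied standard error did not exceed 1 (which leaves out Slc13a5 and Sucnr1) and with the symbol column alone. Several of these settings could not have changed the call of Slc13a3. The symbol column alone reused the deposited q-values, and the recomputed adjustment gave them back within a relative difference of 0.00591. With a q of 6.03e-08 and a log2 ratio of 2.37, its outcome at the q of 0.01 and at the fold minimum was fixed beforehand. The settings are thus no independent support for that call. At an unadjusted p under 0.05, 3 of the 8 passed, adding Acod1 (1.26) and Slc13a5 (-3.03). Over all genes, 278 calls became 165 at a q under 0.01, 94 at the fold minimum, 67 with Holm adjustment and 1426 at the unadjusted p. In the lists of carboxylate transport and metabolism, counting each gene a single time, 4 of 113 measured genes passed, and 2, 1, 2 and 13 did so under the same alternatives. Over all genes, 1.72% passed at a q under 0.05 and 8.84% at the unadjusted p. Without the 8 chosen genes, 2 of 105 list genes were higher and 1 was lower at a q under 0.05, and 10 passed at the unadjusted p. Nothing is read from these counts. Slc25a10 passed under each of them except the fold minimum, whereas Nfkbiz and P4ha1 passed neither at a q under 0.01 nor with Holm adjustment nor at the fold minimum. No paired analysis was possible because only 1 ratio per gene, and no library's own values, were at hand; fits that leave out a replicate or change the scaling were not run for the same reason. Precision limits Sucnr1 and Slc13a5 most.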
